A study of Mus musculus with 22 samples.

Results

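The expression density of 37 genes of mitosis and DNA replication was described along the mouse brain at postnatal day 7. The members were taken from a given list of proliferation genes by name, with no threshold on a measured value, and make up 37 of the 20129 genes with a named probe. RNA of 22 brain fractions was measured, each on 1 array: 10 fractions of a coronal series, 6 of a horizontal series and 6 of a sagittal series. Each series came from the brain of 1 male C57BL/6J mouse, a standard inbred laboratory strain, and no animal carried a transgene or received a treatment according to the labels. The sample titles give an age of 7 days and the age field gives 3 days. Which end of the brain was sliced first is absent from the labels, so the ends are described here by regional marker genes. No fraction had a replicate and no fraction was measured in a second animal, so every p-value given here measures the scatter of single arrays around a smooth curve and holds no spread between mice.

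Cells that divide copy their DNA in S phase and separate the copies in mitosis, and the transcripts of the proteins that do this rise and fall with the cell cycle. Most neurons of the forebrain have left the cell cycle before birth. In the first postnatal weeks of the mouse, granule cell precursors still divide in the external granular layer of the cerebellum, and neural precursors divide in the subventricular zone beside the lateral ventricles and send neurons to the olfactory bulb. Glial precursors divide throughout the brain at this age. A fraction holds whole slabs of tissue, so more dividing cells and more RNA per dividing cell cannot be told apart.

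Many promoters of cell cycle genes are known to carry short elements read by shared regulators. E2F sites are bound by factors that switch on S phase genes, and the cell cycle homology region (CHR) is bound by the complex that acts on genes of G2 phase and mitosis, often beside CCAAT boxes. RefSeq promoter windows (GRCm38.p6, mostly upstream of the start of transcription and reaching a little past it) were matched for 31 of the 37 members. Mcm4, Foxm1, Tpx2, Kif20a, Ccna2 and Aurkb were not matched. The letters TTTGAA (CHR) stood on either strand in the windows of 18 of these 31 members (58.1%) and in 17.9% of all 32851 windows. CCAAT stood in 26 members (83.9%) and in 37.4% of all windows. An E2F form (the letters TTTGGCG, or else TTTCCCG, or else TTTGCCG, or else TTTCGCG) stood in 9 members (29.0%) and in 6.70% of all windows. By role, TTTGAA was found in 2 of 2 matched chromosome genes, 4 of 6 mitotic kinases, 4 of 5 spindle genes and 2 of 2 genes of the anaphase promoting complex, in 3 of 6 kinetochore genes, and in 1 of 7 replication genes (Mcm2). An E2F form was found in 4 of 7 replication genes (Mcm3, Mcm5, Mcm6 and Mcm7), in 2 of 6 kinetochore genes (Birc5 and Cdca8), in Cdk1, Melk and Nusap1, and in neither of the 2 chromosome and 2 anaphase genes. In the cyclin group TTTGAA was found in 2 of 3 matched genes and an E2F form in 1 of 3. These are matches of letters and not measured binding. The stretches that hold the elements upstream of the start are shown for a general marker of dividing cells (Mki67), a mitosis gene (Cdc20) and a replication gene (Mcm6), since they show both kinds side by side. Capitals mark the CHR letters, the CCAAT box or an E2F form on either strand.
Mki67, chr7:135716462-135716577 (- strand): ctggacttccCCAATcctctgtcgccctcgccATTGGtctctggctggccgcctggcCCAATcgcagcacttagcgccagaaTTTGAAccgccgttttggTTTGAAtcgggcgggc
Cdc20, chr4:118437344-118437406 (- strand): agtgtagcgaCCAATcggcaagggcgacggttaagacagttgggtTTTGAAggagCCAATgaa
Mcm6, chr1:128359706-128359825 (- strand): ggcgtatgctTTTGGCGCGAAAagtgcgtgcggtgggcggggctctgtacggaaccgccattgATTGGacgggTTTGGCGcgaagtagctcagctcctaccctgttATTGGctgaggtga
The Mki67 stretch holds TTTGAA at 2 places, the Cdc20 stretch holds it at 1 place between a pair of CCAAT boxes, and the Mcm6 stretch holds no TTTGAA and has E2F forms at 3 places, of which a pair overlaps.

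A level is the log2 processed intensity of a probe after subtraction of the 75th percentile over all probes of the same array, so a difference of 1 is a 2-fold change and a level below 0 lies below that percentile. Levels of different probes cannot be compared with each other. Of the 37 members, 34 were well above background on all 22 arrays. Aurkb was well above background on 3 arrays, Cenpf on 7 and Ttk on 8, and these genes have only a bound in the other fractions. The labelled tissue was checked by 4 neuronal markers (Rbfox3, Snap25, Syt1 and Tubb3), which were above background on all arrays.

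The arrays differed in a technical measure. The slope of the added spike-in transcripts was outside the accepted range on 7 arrays (0.773 to 0.891) and inside it on 15 (0.949 to 1.07). Those out of range were the first 2 coronal fractions, the first 3 horizontal fractions and sagittal fractions 1 and 3. The arrays lay on 4 slides. Coronal fractions 1 and 3 to 8 shared a slide, coronal fraction 2 was alone on another, coronal fractions 9 and 10 shared a slide with the sagittal series, and the horizontal series filled the last.

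Along the coronal series, transcripts of dividing cells were concentrated in fractions 2 and 3. Of the 37 members, 36 had their highest coronal level in one of these 2 fractions, against 45.2% of the 39621 probes tested. In the same 36, both fractions lay above every other coronal fraction, against 6.82% of all probes. Aurkb was the exception. Fractions 1 to 4 all lay above fractions 5 to 10 in 32 members, against 4% of all probes, the others being Pcna, Rrm2, Aurkb, Cenpf and Ndc80. The mean level of fractions 2 and 3 exceeded the mean of fractions 5 to 10 by a median of 2.14 over the 34 members above background on every array, a 4.41-fold difference, and by a median of 0.17 over all probes tested. The smallest difference was that of Pcna (2.19-fold) and the largest that of Ube2c (7.72-fold). The highest value was in fraction 3 for 31 members, against 15.4% of all probes, and in fraction 2 for Bub1b, Kif23, Cenpe, Ndc80 and Ube2c.

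**Figure D1:**
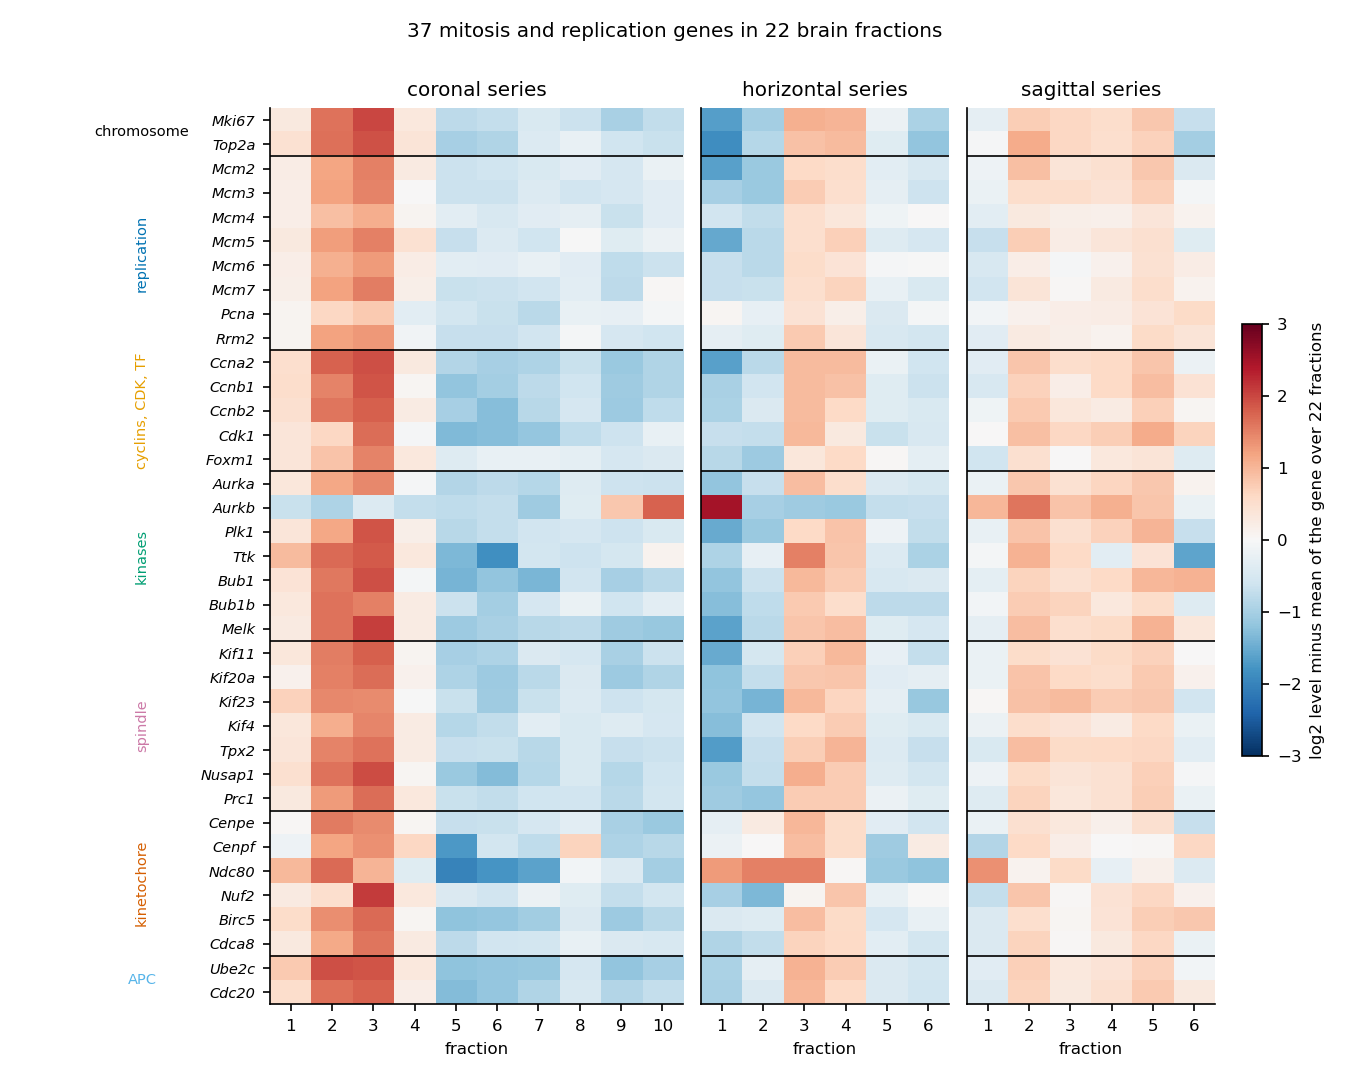
Each row is 1 of the 37 genes, grouped by role, and each column 1 fraction of the coronal, horizontal or sagittal series; the colour is the log2 level minus the mean of that gene over the 22 fractions. Fractions 2 and 3 of the coronal series, 3 and 4 of the horizontal and 2 to 5 of the sagittal series are red in nearly all rows, Aurkb and Ndc80 have patterns of their own, and most values of Aurkb, Cenpf and Ttk are not well above background.

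Mki67, whose protein coats the chromosomes of dividing cells and is the usual marker of proliferation, had levels of 2.47, 3.81, 4.19, 2.48, 1.40, 1.45, 1.73, 1.53, 1.20 and 1.43 in coronal fractions 1 to 10. Fractions 2 and 3 were high, fractions 1 and 4 lay between, and fractions 5 to 10 were low and did not overlap with the first 4. Top2a, the topoisomerase that untangles chromosomes before they separate, had levels of 0.30, 1.49, 1.75, 0.21, -1.15, -1.06, -0.57, -0.39, -0.75 and -0.83 in the same fractions. Its order was the same in the first 4 fractions except that fraction 1 lay above fraction 4. The mean of fractions 2 and 3 was 5.82-fold above that of fractions 5 to 10 for Mki67 and 5.31-fold for Top2a.

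Change along each axis was tested with limma in 1 model of all 22 arrays with a linear and a quadratic term of slab position per series. The linear term is the fitted change from the first to the last fraction, and the quadratic term is positive where both ends lie above the middle. The p-values were adjusted by the Benjamini-Hochberg method across the 39621 probes, and a call is an adjusted p under 0.05. Of the 37 members, 21 were called for coronal position, against 19.8% of all probes, and 35 had an unadjusted p under 0.05, against 38.8%. With slide as a random block 18 of these 21 calls were lost and those of Ccna2, Ndc80 and Ube2c were kept, and from the coronal arrays alone 20 were lost and that of Aurkb was kept, so no falling member was called there. The calls by role given below hold for the model of all arrays without a slide term. Aurkb and Ttk are among the 21 but passed the filter on low values only through the fractions where they were high, so their calls are not support. The linear term was below 0 in 20 of the 21 called members. Of the 34 members above background on every array, 19 were called and all 19 fell (55.9%), against 7.43% of all probes. Here and below, that share covers all 39621 probes, of which 25815 were above background on every array. The share among those 25815 is not given here. Aurkb was the 1 member called with a term above 0, against 12.4% of all probes. The linear term by itself was called in 23 members, 22 of them falling, against 12.3% of all probes, with 4.95% of all probes falling and 7.3% rising. Its unadjusted p was under 0.05 in 35 members, against 27.9% of all probes. The linear calls kept were those of Ccna2 and Ube2c with slide as a random block, Aurkb from the coronal arrays alone and Ube2c without coronal fraction 2. The quadratic term was called in 0 members by limma, against 7.31% of all probes, and its unadjusted p was under 0.05 in 4, against 30.3%. The quadratic count was 24 without coronal fraction 1. Leaving out 1 fraction moved the position count from 21 to 35 without coronal fraction 1, 2 without fraction 2, 8 without fraction 6, 5 without fraction 7 and 5 without fraction 9. The linear term was below 0 in 36 of 37 members under every alternative that kept all members. Fraction 2 was alone on its slide and had a spike-in slope outside the range.

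**Figure D2:**
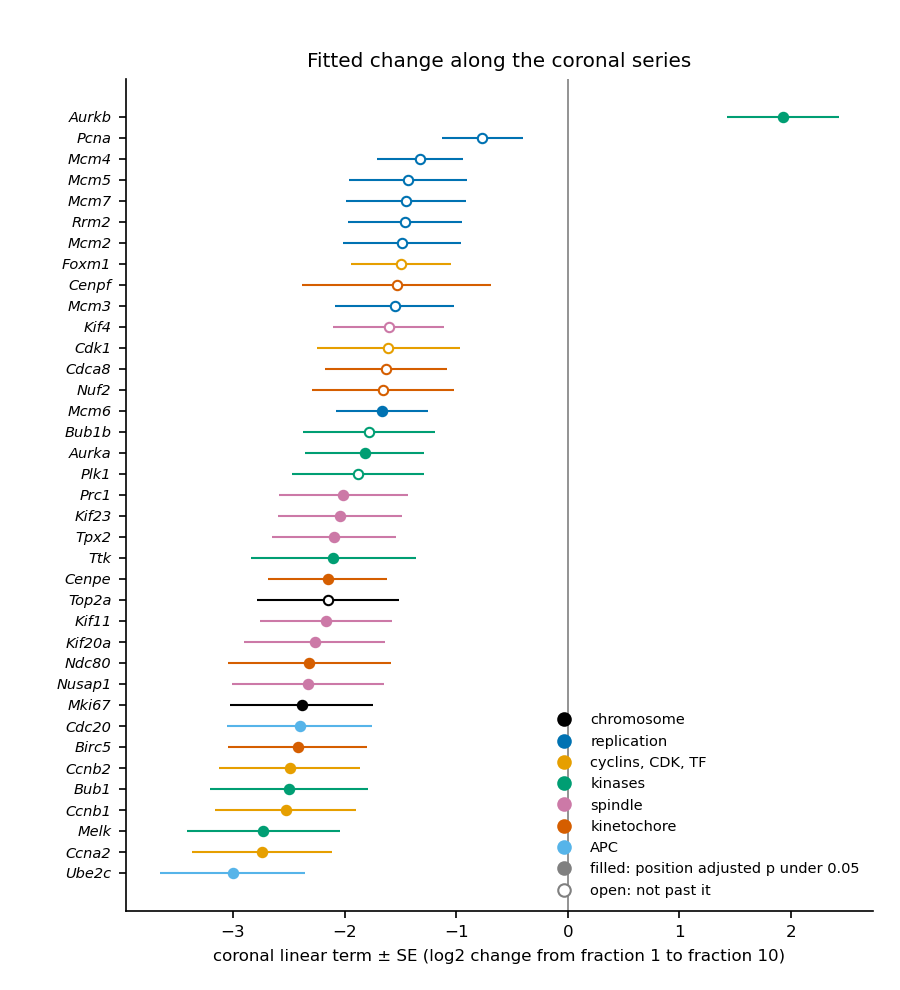
The horizontal axis is the fitted linear change along the coronal series in log2 units with its SE, for each of the 37 genes, coloured by role; filled points passed the coronal position test. Of the 37 terms, 36 lie below 0, from -0.77 for Pcna to -3.00 for Ube2c, and Aurkb lies above 0.

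Fraction 3 was measured with a slope in range and on the same slide as fractions 4 to 8. It lay above every one of fractions 4 to 10 in 36 of 37 members, all but Aurkb, against 21.2% of all probes. Within that slide the level of fraction 3 exceeded the mean of fractions 5 to 8 by a median of 2.36 over the 34 members above background on every array, a 5.12-fold difference, and by a median of -0.00 over all probes tested.

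Among the replication genes, which load and form the replicative helicase (Mcm2 to Mcm7), clamp the polymerase to DNA (Pcna) or make deoxynucleotides (Rrm2), 1 of 8 members was called for coronal position (12.5%, below the 19.8% of all probes) and 8 of 8 had an unadjusted p under 0.05. The fold of fractions 2 and 3 over 5 to 10 had a median of 3.38 and ran from 2.19 (Pcna) to 3.63 (Mcm3), and the whole range of this group lay below the values of Mki67 and Top2a. Mcm6 lay between 3.33 in coronal fraction 9 and 5.35 in fraction 3, with a median of 3.81. Its linear term was -1.67 ± 0.414 (SE; limma adjusted p for position = 0.0304). Pcna lay between 3.47 in fraction 7 and 5.06 in fraction 3, with a median of 4.05, and its levels in fractions 8 to 10 lay above that of fraction 4. Its term of -0.77 ± 0.362 was not called (limma adjusted p = 0.0891). Pcna also serves in DNA repair.

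The group of cyclins that drive entry into and passage through mitosis, with Cdk1 and Foxm1, had a median fold of 6.12, from 2.85 (Foxm1) to 6.81 (Ccna2). Of its 5 members 3 were called, against 19.8% of all probes. Ccna2, the cyclin of S and G2 phase, lay between 0.45 in coronal fraction 9 and 3.49 in fraction 3, with a median of 0.78, and its linear term was -2.74 ± 0.627 (limma adjusted p = 0.0177). Ccnb2, a B-type cyclin that activates Cdk1 at the onset of mitosis, lay between 0.52 in fraction 6 and 3.59 in fraction 3, with a median of 1.16. Its term was -2.49 ± 0.634 (limma adjusted p = 0.0258). Ccnb1 was called as well, while the kinase Cdk1 (limma adjusted p = 0.0712) and the transcription factor Foxm1 (limma adjusted p = 0.0650), which activates G2 phase genes, were not. The other RefSeq probes of Cdk1 were above background on 18 and 10 arrays and followed the probe used here with r of 0.45 and 0.48 over 22 fractions. Their coronal differences of fractions 2 and 3 over 5 to 10 were 0.23 and 0.01, against 2.05 for the probe used. They were highest in coronal fractions 1 and 10. No second probe of Cdk1 was above background on all arrays to set beside the values given.

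Of 7 mitotic kinases, 5 were called for position, against 19.8% of all probes. These 5 include Aurkb, which rose, and Ttk, and the calls of both are not support, as stated above. Plk1, the polo-like kinase that acts at centrosomes and kinetochores, lay between 0.68 in coronal fraction 5 and 3.40 in fraction 3, with a median of 1.02. Fractions 1 to 4 lay above fractions 5 to 10 without overlap, and its term of -1.88 ± 0.591 was not called (limma adjusted p = 0.0628). Aurka, which acts on spindle poles, Bub1, a spindle checkpoint kinase, and Melk were called and fell, while the checkpoint kinase Bub1b was not called (limma adjusted p = 0.0669). The checkpoint kinase Ttk was well above background in fractions 1 to 4 and not in fractions 5 to 10. Its mean was at least 3.01-fold higher in the first 4. For such dim genes the other fractions were set to the higher of the probe's own value and the lowest level above background on that array.

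Aurkb, the kinase of the chromosomal passenger complex, went against the other members. It was well above background in the last coronal fraction (-4.01), the first horizontal fraction (-3.30) and sagittal fraction 2 (-4.19) and in no other. In the coronal series fraction 10 was at least 2.84-fold higher than the mean of the others, and in the horizontal series fraction 1 was at least 5.07-fold higher. Each of these bounds sets a single array against values not well above background. The measured means were -4.01 and -6.33 in the coronal series. Its partners in the same complex, Birc5 and Cdca8, had their highest coronal level in fraction 3. Aurkb had 1 probe. Its coronal call was lost without coronal fraction 10, with slide as a random block, with quantile normalization and without scaling. Its horizontal call was lost without horizontal fraction 1, with median centring, quantile normalization and normexp, on arrays with slopes in range, from the horizontal arrays alone and without scaling.

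Of the 7 kinesins and spindle proteins, which move and bundle the microtubules of the spindle, 6 were called, against 19.8% of all probes. All 6 fell, against 7.43% of all probes called and falling. Kif4 was not called (limma adjusted p = 0.0586), and the linear term by itself was called in all 7, none of which was kept with slide as a random block or without coronal fraction 2. The median fold was 4.67. Kif23, a motor of the central spindle needed for cytokinesis, lay between -3.36 in coronal fraction 6 and -0.87 in fraction 2, with a median of -2.78, and its term was -2.04 ± 0.554 (limma adjusted p = 0.0279). Prc1, which crosslinks the microtubules of the same structure, lay between 1.24 in fraction 9 and 3.72 in fraction 3, with a median of 1.48. Its term was -2.01 ± 0.578 (limma adjusted p = 0.0490). Kif11, which pushes the spindle poles apart, Kif20a, Tpx2 and Nusap1 were also called. A second probe of Tpx2, above background on all 22 arrays, had a coronal difference of fractions 2 and 3 over 5 to 10 of 0.86, against 2.22 for the probe used, and followed it with r of 0.70.

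Birc5 (survivin), a subunit of the passenger complex, had the smallest coronal p of the kinetochore and passenger group. It lay between 2.03 in coronal fraction 5 and 4.94 in fraction 3, with a median of 2.60, and its term was -2.42 ± 0.626 (limma adjusted p = 0.0259). Cenpe, a kinetochore motor, and Ndc80, a microtubule-binding kinetochore protein, were called too. Thus 3 of 6 members of this group were called, against 19.8% of all probes. Cenpf, Nuf2 and Cdca8 had limma adjusted p of 0.315, 0.147 and 0.0826. Cenpf was well above background in fractions 2 to 4 and not in the other coronal fractions.

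Both genes of the anaphase promoting complex, the ubiquitin ligase that ends mitosis, were called, against 19.8% of all probes. Ube2c, its ubiquitin-conjugating enzyme, lay between 0.58 in coronal fraction 5 and 3.71 in fraction 2, with a median of 1.02, and had the steepest linear term of all members, -3.00 ± 0.652 (limma adjusted p = 0.0125). Cdc20, its activator, lay between 1.14 in fraction 5 and 4.23 in fraction 3, with a median of 1.85, and its term was -2.40 ± 0.647 (limma adjusted p = 0.0289). In both genes fractions 1 to 4 lay above fractions 5 to 10.

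**Figure D3:**
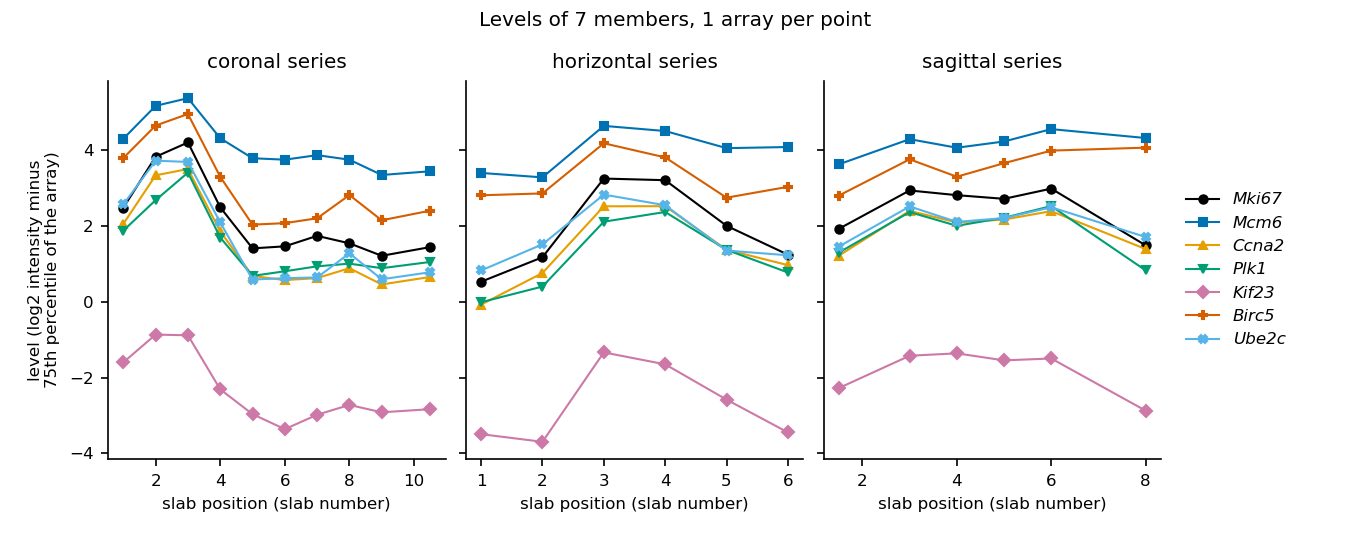
Levels of 7 members (log2 intensity after subtracting the 75th percentile of each array) are plotted against slab position in the 3 series, 1 array per point; heights of different genes cannot be compared because they come from different probes. In the coronal series all 7 peak at slab 2 or 3, in the horizontal series at slab 3 or 4, and in the sagittal series Birc5 stays high in the last fraction while Plk1 and Kif23 fall.

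Toward the other end of the coronal series the members were low, with small rises. The lowest coronal level was in fraction 5, 6 or 7 in 27 of 37 members, against 30.3% of all probes. Fractions 9 and 10 exceeded fractions 5 to 7 by a median of 0.14 over the 34 members above background on every array, against 0.15 over all probes tested. Fraction 10 lay above fraction 6 in 31 of 37 members, against 59.1% of all probes, and above fraction 9 in 29, against 46.2%. Fraction 8 lay above fraction 7 in 29, against 60% of all probes, and above both 7 and 9 in 27, against 43.1%. At the first end, fraction 1 lay below fraction 2 in 36 members, against 50.1% of all probes, by a median of 1.00 over the 34. Among the 34, the change from fraction 7 to 8 was largest in Ndc80 (1.53), and that of Mki67 was -0.20. None of these differences was tested, since each compares single arrays or means of a few arrays without replicates.

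Regional markers placed these fractions. Of 11 tested markers of the cerebellar granule lineage, 10 had their highest coronal level in fraction 2 or 3, against 45.2% of all probes, and 9 were called for coronal position and fell, against 7.43%. Of the 11, 9 were above background on every array, and 7 of those were called and fell. Zic1, a transcription factor of this lineage, was 6.92 and 7.06 in coronal fractions 2 and 3 and between 3.59 and 5.00 in fractions 5 to 10. Cbln1, a synapse organiser secreted by granule cells, was 4.31 and 4.62 against 1.79 to 3.13. Atoh1, the factor that defines granule cell precursors was chosen here after its values were seen and was above background on 17 arrays. It was 1.26 and 0.84 in fractions 2 and 3, and its highest level in fractions 5 to 10 was -3.00. The summed level of the granule list lay between 6.40 and 7.62 (log2) in coronal fractions 1 to 4 and between 4.71 and 5.58 in fractions 5 to 10. Over the 22 fractions the median profile of the granule list followed the mean of the 34 members with r of 0.95, and with r of 0.97 over the 10 coronal fractions. These fractions share arrays and scaling. Other lists moved with the members along the coronal series. The median profile of 4 red blood cell genes had r of 0.84 there and that of 9 neutrophil and marrow genes r of 0.74, while that of 4 neuronal genes had r of -0.89. Of the 4 red blood cell genes 3 were called and fell, against 7.43% of all probes. Of the 9 marrow genes 0 were called by limma, against 19.8% of all probes, and 6 had an unadjusted p under 0.05, against 38.8%. Of the 4 neuronal genes 3 were called and rose, against 12.4%. The part of granule precursors, blood or neurons in the members' levels was not tested.

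Of 10 markers of the hindbrain, most of them Hox genes, 9 had their highest coronal level in fraction 1. All 10 were called and fell, against 7.43% of all probes. Only 1 of the 10 was above background on every array, and it was among those called and falling. The others can have passed the filter on low values only through fractions where they were high, so their calls are not support. Hoxc4 was 3.69 in fraction 1 and -1.05 in fraction 3. The median profile of the hindbrain list was highest in fraction 1, before fractions 2 and 3 where the members were highest. At the other end, all 5 markers of olfactory bulb neurons and olfactory axons had their highest coronal level in fraction 10. All 5 were called and rose, against 12.4% of all probes, and 4 of them were above background on every array. Cdhr1, a cadherin of mitral and tufted cells, was 5.16 in fraction 10 and 0.37 in fraction 6. Of 10 markers of the subventricular zone and migrating interneuron precursors, 8 were highest in fraction 10 and 9 were called with a term above 0, against 12.4% of all probes. The remaining 1 was called and fell. Of the 10, 5 were above background on every array, and all 5 of those were called. Among those 5, 1 fell and 1 was highest in fraction 2 or 3. Over the 10 coronal fractions the median profile of the subventricular list went with the members at r of -0.78 and that of the olfactory list at r of -0.35. At the olfactory end, where these lists were highest, Mki67 was 1.43 and Top2a -0.83, below all of coronal fractions 1 to 4.

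**Figure D4:**
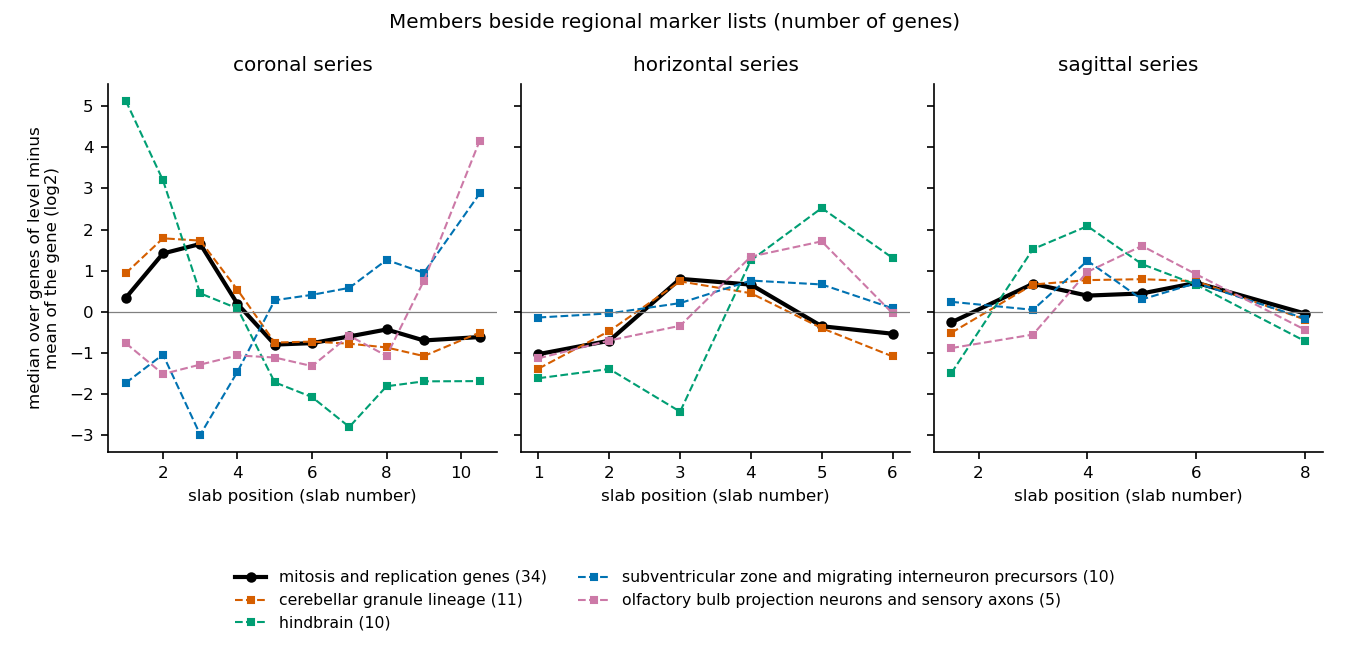
The black line is the median of the 34 members above background on all arrays and the dashed lines are medians of 4 marker lists (number of genes in brackets), each gene taken minus its own mean over 22 fractions in log2 units, against slab position. Members and granule lineage markers peak together at coronal slabs 2 and 3 and horizontal slab 3, hindbrain markers at coronal slab 1, and olfactory and subventricular markers in the last coronal fraction.

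Along the horizontal series the members were highest in the middle. Horizontal fraction 3 or 4 was the highest in 36 of 37 members, all but Aurkb, against 18% of all probes. Both lay above every other horizontal fraction in 35, all but Aurkb and Ndc80, against 5.93% of all probes. In the 34 members above background on every array, the mean of fractions 3 and 4 exceeded that of the other 4 by a median of 1.43, a 2.69-fold difference, from 1.39-fold in Pcna to 3.97-fold in Mki67. Mki67 was 0.52, 1.17, 3.24, 3.20, 1.99 and 1.23 in horizontal fractions 1 to 6, and Top2a was -2.03, -1.03, 0.72, 0.78, -0.53 and -1.34. In both genes fractions 3 and 4 differed by less than 0.1 and stood apart from the rest. Horizontal fraction 6 lay above fraction 1 in 31 of 37 members, against 40.7% of all probes.

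The curve fitted to 6 horizontal arrays called 1 of 37 members, Aurkb, against 6.57% of all probes, and 15 members had an unadjusted p under 0.05, against 38% of all probes. For Mki67 the quadratic term was -2.16 ± 0.618 (limma adjusted p for position = 0.0699), and for Top2a it was -2.28 ± 0.615 (limma adjusted p = 0.0633). The count was 12 where the arrays were not scaled and 9 without coronal fraction 1, and it was 0 with median centring, with normexp, on arrays with slopes in range, from the horizontal arrays alone and without horizontal fraction 1. Ccna2, Plk1 and Kif23 had quadratic terms of -1.91, -1.70 and -1.76, while those of Mcm6, Birc5 and Pcna were -0.70, -0.89 and -0.19. Horizontal fractions 1 to 3 had spike-in slopes out of range and fractions 4 to 6 in range. Among those in range, fraction 4 lay above fractions 5 and 6 in 36 of 37 members, all but Aurkb, against 28.9% of all probes. Granule lineage markers had their highest horizontal level in fraction 3 or 4 in 11 of 11 cases, against 18% of all probes. The summed level of that list was 6.52 in both fractions and between 4.10 and 5.58 in the others. Other lists peaked there as well, choroid plexus markers in 5 of 5 cases and subventricular markers in 8 of 10. Striatal markers did so in 4 of 5, thalamic in 3 of 4 and olfactory in 3 of 5. Cortical markers did so in 1 of 6, hindbrain in 0 of 10 and hypothalamic in 0 of 6. The part of any of these cells in the horizontal profile was not tested.

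Along the sagittal series, which crosses the brain from one side to the other, the members were higher in fractions 2 to 5 than in the outer fractions. The highest sagittal level was in one of fractions 2 to 5 in 32 of 37 members, against 39.4% of all probes, and the lowest was in fraction 1 in 26, against 17.2%, or in fraction 6 in 11, against 22.8%. Fraction 1 lay below all of fractions 2 to 5 in 34 members, against 23.7% of all probes, the others being Aurkb, Ttk and Ndc80. Mki67 was 1.92, 2.92, 2.80, 2.70, 2.97 and 1.48 in sagittal fractions 1 to 6, and Top2a was -0.20, 0.95, 0.45, 0.34, 0.53 and -1.18. Within fractions 2 to 5 the members ranged over a median of 0.47, against 0.60 for all probes. The linear term was called in 0 members, against 10.2% of all probes, and 0 had an unadjusted limma p under 0.05, against 24% of all probes. The quadratic term was called in 0 members, against 0.0303% of all probes, and its unadjusted limma p was under 0.05 in 2, Plk1 (0.0386) and Kif23 (0.0374), against 14.8% of all probes. It was below 0 in 36 of 37.

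The members parted in the last sagittal fraction. Fraction 6, which pools slabs 7 to 9, lay below all of fractions 2 to 5 in 27 of 37 members, against 26.4% of all probes, within their range in 6 and above it in 4 (Pcna, Bub1, Cenpf and Birc5). Cenpf was not well above background in this fraction, so its rank there is not a measured one. Among the 34 members above background on every array the counts were 25, 6 and 3. Fraction 6 was the highest sagittal fraction in 33.8% of all probes. Top2a was 1.75 below the mean of fractions 2 to 5 (log2), Plk1 1.45, Kif23 1.41 and Mki67 1.37. Birc5 was 0.39 above that mean, the checkpoint kinase Bub1 0.36 and Pcna 0.33. By role, the medians of this difference were -1.56 for the 2 chromosome genes and -0.65 for the spindle genes, and -0.17 for the replication genes, whose own range from -1.08 (Mcm2) to 0.33 (Pcna) was wide. The other roles lay between, with -0.57 for the mitotic kinases, -0.55 for the kinetochore genes, -0.45 for the cyclin group and -0.45 for the anaphase genes. Only single arrays stand behind these differences and no test of them was made. Markers of other tissues moved in the same fraction. All 9 markers of neutrophils and bone marrow had their highest sagittal level in fraction 6, 3 of them were called in the sagittal linear term, against 10.2% of all probes, and the summed level of the list was 4.29 there and between 0.70 and 1.93 in fractions 2 to 5. S100a9, a calcium-binding protein of neutrophils, was 3.09 in fraction 6 and at most -0.53 in fractions 1 to 5. Of 3 tested bone markers, Ibsp and Col1a1 were highest there, and both were nearly as high in sagittal fraction 2. Other lists were also often highest in fraction 6, endothelial genes in 5 of 7 cases, meningeal in 3 of 4 and red blood cell genes in 3 of 4. Choroid plexus genes were so in 3 of 5 cases and radial glia and astrocyte genes in 4 of 7. Microglial genes were so in 1 of 6 and oligodendrocyte precursor genes in 0 of 5. The part of marrow cells or of any of these other cells in the levels of Birc5, Bub1 and Pcna was not tested.

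**Figure D5:**
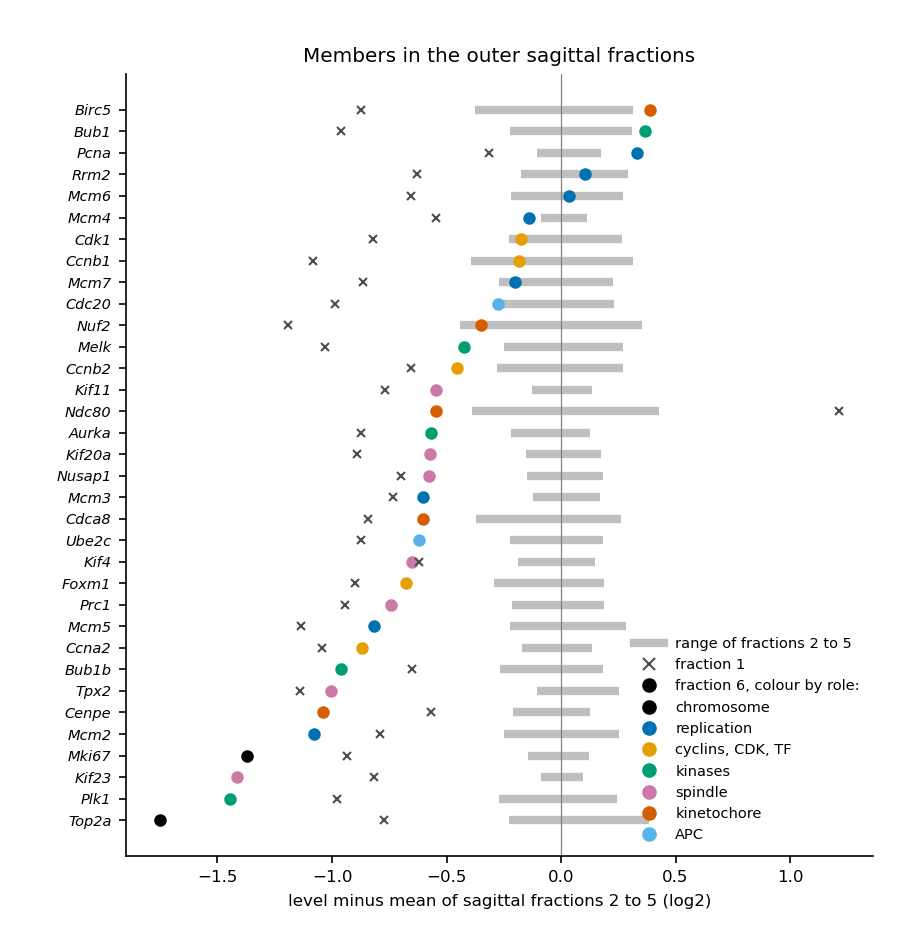
For each of the 34 members above background on all arrays, the level in sagittal fraction 6 (dots, coloured by role) and in fraction 1 (crosses) is drawn relative to the mean of fractions 2 to 5, in log2 units, with grey bars for the range of fractions 2 to 5. Fraction 1 lies left of the bar in all but Ndc80, while fraction 6 runs from -1.75 in Top2a to 0.39 in Birc5.

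Over the 561 pairs of the 34 members, the median Pearson r over 22 fractions was 0.92, and 431 pairs (76.8%) were above 0.85, the threshold used here for similarly expressed transcripts. The median was 0.97 over the 10 coronal fractions, 0.93 over the 6 horizontal and 0.86 over the 6 sagittal fractions, where 51.5% of pairs were above 0.85. The lowest pair was at -0.47 in the horizontal and -0.91 in the sagittal series. Transcripts above 0.85 with 1 member numbered between 131 and 465 of the 39621 probes, with a median of 339, and a median of 28.5 of the other members were among them. Nusap1 followed the mean of the other members most closely (r of 0.99) and Pcna, with r of 0.79, had 4 members among its partners. Ndc80 was furthest from the rest, with r of 0.50 and 0 members among its 256 partners. Its levels in horizontal fractions 1 to 6 were -0.50, -0.26, -0.26, -1.75, -2.88 and -2.99, high in the first 3, and its level in sagittal fraction 1 (-0.41) was its highest in that series. Nuf2, which binds Ndc80 in the same complex, was lowest in horizontal fraction 2 (-2.57) and highest in fraction 4 (-0.39). Horizontal fractions 1 to 3 and sagittal fraction 1, where Ndc80 was high, had spike-in slopes out of range, and the part of the arrays in its profile was not tested. The profile of Ndc80 was singled out after its values were seen. Of the 37 members, 9 had other RefSeq probes, 12 in all. Of these 12, 8 were above background on all arrays, and their r with the probe used here lay between 0.70 and 0.99.

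Other genes of the same processes gave a like picture. Of 51 tested other mitosis genes, 33 were called for coronal position and all 33 fell, and 51 had their highest coronal level in fraction 2 or 3, against 45.2% of all probes. Of the 43 above background on every array, 27 were called and fell (62.8%), against 7.43% of all probes. Hmgb2, a chromatin protein of dividing cells, was 5.51 and 5.59 in fractions 2 and 3 and between 2.23 and 3.55 in fractions 5 to 10 (limma adjusted p = 0.0269). Pttg1 (securin), the other example with a high median level, was 3.37 and 4.42 in fractions 2 and 3 and between 3.90 and 4.07 in fractions 5 to 10 (limma adjusted p = 0.839). Of 46 other replication genes, 19 were called and all 19 fell, and 43 were highest in fraction 2 or 3, against 45.2% of all probes. Of the 42 above background on every array, 18 were called and fell (42.9%), against 7.43% of all probes. Gins3, a helicase subunit, and Ung, a repair glycosylase, were the highest in median level and were among the 3 that were not. Of 14 cyclins, kinases and inhibitors of G1 phase, 3 were called (21.4%), near the 19.8% of all probes. Ccnd1 and Cdkn1c fell, and Btg1, an antiproliferative factor, was called with a term of 0.17. Cdk4 was 5.92 and 5.96 in fractions 2 and 3 and between 4.46 and 5.17 in fractions 5 to 10 (limma adjusted p = 0.0783). Cdkn2d, an inhibitor of Cdk4, was 4.06 and 4.64 in fractions 2 and 3 and between 4.48 and 4.97 in fractions 5 to 10 (limma adjusted p = 0.142).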

How the data were processed

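Total RNA of 22 brain fractions was hybridised to Agilent 1-colour (Cy3) arrays by the authors, 1 array per fraction. Per the file headers, the authors extracted the deposited spot intensity with Agilent Feature Extraction 10.10.1.1, which subtracts background. A processed table of log2 values was deposited too and served as an alternative. After matching of its probes, 99.9% of its values lay within 0.02 of the levels used here. From the scanner files, outlier and control spots were left out, spots of a probe were averaged, and each array was scaled to its 75th percentile. Genes were named through a RefSeq table of another assembly, used for names only, and read from the RefSeq probe with the highest median. Probes well above background in at least 1 fraction of each series were tested (39621 of 55600). limma 3.58.1 in R 4.3.3 (lmFit, eBayes) was fitted to all 22 arrays with 9 coefficients and 13 residual degrees of freedom. On simulated data with 200 of 39621 probes changed by 2 log2 units it recovered 67% for coronal position, 63% for horizontal position and 53.5% for the sagittal quadratic term. Recovery was 49.5% for the coronal linear, 59% for the coronal quadratic and 47% for the sagittal linear term. For position both terms were changed. The simulated noise was independent between arrays, while the estimated correlation within slides was 0.31 in the data. Tables and figures were made with Python 3.11.15, pandas 2.3.3 and matplotlib 3.10.9. The members, gene lists, motifs and tests were chosen with earlier results of these data known. All 37 members were named. Values per fraction were given for Mki67, Top2a, any called member against the common direction and, in each other role, the members highest in median level and smallest in coronal p.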

Additional observations from a re-analysis of the deposited data

Results flagged for a closer look

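In 1 of 102 profiles checked (34 members in 3 series), a single fraction stood far from the rest. Nuf2, a kinetochore protein, was 0.88 in coronal fraction 3 and at most -0.72 in the other coronal fractions, a gap of 0.57 of its whole range. Chance flags about 1 in 20 such profiles. The other RefSeq probe of Nuf2 was not well above background on any array, so the value has no second probe beside it.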

How the results depend on the processing

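No paired analysis was possible because a fraction number names a slab on a different axis of a different mouse. The count of 21 members called for coronal position was 8 with median centring of the arrays, 9 with the a107 spike-in signal as a covariate, 1 from the coronal arrays alone and 3 with slide as a random block, and between 2 and 35 without 1 fraction. It lay between 16 and 26 under the other settings tried. The count of 23 for the coronal linear term was 9 with median centring, 3 on arrays with slopes in range, 1 from the coronal arrays alone, 2 with slide as a random block and between 1 and 31 without 1 fraction, with 1 without coronal fraction 2, 5 without fraction 9 and 14 without fraction 7. The coronal quadratic count of 0 was 1 with normexp, 1 with a107, 3 on arrays in range, 1 with the mean of all probes, and between 0 and 24 without 1 fraction, with 24 without coronal fraction 1. The horizontal count of 1 was 0 with median centring, 4 with quantile scaling, 0 with normexp, 4 on probes above background on all arrays, 0 on arrays in range, 0 from the horizontal arrays alone, 3 with slide as a random block, 12 without scaling and between 0 and 9 without 1 fraction, with 9, 5 and 8 without coronal fractions 1, 2 and 3. The sagittal linear count of 0 was 1 on arrays in range and 0 without any 1 fraction, and the sagittal quadratic count was 0 throughout. No member changed the sign of its coronal linear term in any of these settings. Normexp was run on the median spot signal and the mean signal was not used here. No scaling and the cubic term were chosen after seeing the data. The causes of these moves were not tested.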

Other observations

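Glial precursors also divide at this age, and markers of glial cells had varied coronal profiles. Of 5 markers of oligodendrocyte precursors, 2 were called for coronal position by limma (40%, against 19.8% of all probes). Those were Pdgfra and Cspg4, which had their highest coronal levels in fractions 5 and 6. Olig1 and Olig2 were highest in fraction 1 and Sox10 in fraction 3. Of 7 markers of radial glia and astrocytes, 4 were highest in fraction 2 or 3, and 1 was called (14.3%, near the share of all probes). That was Fabp7, which was 8.32 in fraction 3 and 8.40 in fraction 10 and lowest in fraction 6 (6.89). Vim, a filament protein of radial glia, was highest in fraction 3 (4.82) and followed the mean of the 34 members with r of 0.74 over 22 fractions (limma adjusted p = 0.0818). Genes other than those highest in median level were chosen after their values were seen.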
